A study of Mus musculus with 2 samples.

Results

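The Hox genes of newborn mouse back skin were examined in single cells of control and Gli2EKO mice. The members are all 39 genes of the deposited gene list whose symbol is Hox followed by a letter from a to d and a number, out of 56694 genes listed. The rule used names only and no measured value. All 39 genes were matched by identifier to the GRCm39 annotation, where 11 HoxA genes lie on chromosome 6 (minus strand), 10 HoxB genes on chromosome 11 (chr11:96085106-96259082, plus strand), 9 HoxC genes on chromosome 15 (chr15:102829538-102945278, plus strand) and 9 HoxD genes on chromosome 2 (chr2:74498654-74595486, plus strand). The study asked how the Hedgehog transcription factor Gli2 acts in hair follicle (HF) formation, and its single-cell part holds 1 library per genotype from back skin at postnatal day 2 on a C57Bl/6N background. Gli2EKO mice carry a floxed Gli2 allele and the K14Cre transgene, which deletes in keratinocytes and leaves the dermis and other cell types with intact alleles. The control library is labelled WT, and by the study's methods controls were floxed littermates without Cre. Cells were released from epidermal whole mounts by collagenase and trypsin, and although the tissue is labelled as epidermis, fibroblast-like and other dermal cells were among them. The sources used here do not state how many mice each library pooled.

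Hox genes encode homeodomain transcription factors that give cells their address along the body axis. The genes of a cluster are arranged in the order in which they are used: low numbers act towards the head, high numbers towards the tail and the limb ends, and genes that share a number in different clusters are paralogs. In skin, dermal fibroblasts keep a Hox profile of the body site they came from, and Hoxc13 is known for its part in hair and nail formation, where it controls hair keratin genes.

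Each library was counted by its polyA ends with unique molecular identifiers (UMIs), so a level is given in CPM, the usual scale of a gene's UMIs relative to all UMIs, both summed over the cells of a class. Because a transcript contributes its end only once, levels of different genes were compared without scaling to length. The control file held 6326 barcodes and 71021773 UMIs and the Gli2EKO file 4296 barcodes and 48866478 UMIs, with 0 barcodes in common, and 4457 and 3094 cells were kept after filtering and removal of likely doublets. Cells were clustered without Hox genes and named from marker genes, so classes are called "like" the cell type they resemble. With 1 library per genotype no test between genotypes was possible and no p-value is given. Intervals are at 95% and cover counting error only. Gli2 stood at 83.6 CPM in control and 85.1 CPM in Gli2EKO keratinocytes and at 224 and 201 CPM in fibroblast-like cells. Within keratinocyte classes it was at 60.3 and 112 CPM in IFE basal-like, 125 and 122 in ORS-like, 74.5 and 62.6 in matrix-like, 110.4 and 85.2 in IRS-like and 18.1 and 2.46 in SG-like cells, the last on 18 and 2 UMIs. These values do not check the genotype labels, because the deleted exons are not given in the sources used here and the assay reads the polyA end.

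Over the kept cells of both libraries, the 39 genes gave 44424 UMIs, of which 79.6% lay in keratinocytes. HoxB contributed 15164 UMIs, HoxC 13644, HoxA 13170 and HoxD 2446. The 5 most counted genes were Hoxa7 with 7484 UMIs, Hoxc8 with 4720, Hoxc13 with 4005, Hoxb2 with 2851 and Hoxb7 with 2783. Of the 39 genes, 27 reached 100 UMIs and are described by class. The other 12 held 208 UMIs together, with Hoxb1 highest at 53, and 3 of them, Hoxa13, Hoxb13 and Hoxd12, had 0 UMIs in either library. Of the 9 HoxD genes, 6 were among these 12, against 2 in each of the other clusters. Hox genes above number 10 were nearly silent apart from Hoxc13: Hoxa11 held 17 UMIs, Hoxc11 16, Hoxc12 10, Hoxd11 26 and Hoxd13 1. In the annotation, 11 of the 39 genes overlap another Hox gene on the same strand (Hoxa3 with Hoxa4, Hoxa5 and Hoxa6; Hoxc5 with Hoxc6, Hoxc8, Hoxc9 and Hoxc10; Hoxd3 with Hoxd4), and the division of reads between these genes is uncertain.

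The promoters of Hoxa7, Hoxc8 and Hoxc13 are shown because these genes led the interfollicular, dermal and hair programmes described below. Each is the plus- or minus-strand sequence of the 250 bases before the canonical transcription start in GRCm39, read 5′ to 3′, and capitals mark a match to a searched motif.
Hoxa7, chr6:52194486-52194735, minus strand: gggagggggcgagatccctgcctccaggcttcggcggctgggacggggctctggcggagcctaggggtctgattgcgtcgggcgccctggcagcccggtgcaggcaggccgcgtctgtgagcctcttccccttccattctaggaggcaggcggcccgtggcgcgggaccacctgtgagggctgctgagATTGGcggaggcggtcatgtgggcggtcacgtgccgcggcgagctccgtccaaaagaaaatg
Hoxc8, chr15:102898601-102898850, plus strand: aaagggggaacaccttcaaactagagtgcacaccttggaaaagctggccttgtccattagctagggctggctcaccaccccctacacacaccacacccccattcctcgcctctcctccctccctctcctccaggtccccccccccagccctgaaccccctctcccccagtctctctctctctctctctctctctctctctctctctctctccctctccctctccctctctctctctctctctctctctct
Hoxc13, chr15:102829288-102829537, plus strand: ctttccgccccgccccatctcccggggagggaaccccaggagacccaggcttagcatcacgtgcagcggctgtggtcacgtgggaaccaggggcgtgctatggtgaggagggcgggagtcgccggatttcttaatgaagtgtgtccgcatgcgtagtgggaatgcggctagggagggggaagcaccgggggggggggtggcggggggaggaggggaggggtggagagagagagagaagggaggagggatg
4 motifs were searched on both strands. TATAAA occurred in 6 of the 39 Hox promoters and in 11.9% of 21770 promoters of the same length, CCAAT in 25 Hox promoters and 36.5% of all, the Hox-Pbx motif TGATTNAT in 3 Hox promoters (Hoxa2, Hoxb3 and Hoxb9) and 2.55% of all, and the Gli motif GACCACCCA in 0 Hox promoters and 0.188% of all. The Hoxa7 promoter held a CCAAT match on the opposite strand, starting 62 bases before the start site. Neither the Hoxc8 nor the Hoxc13 promoter held any of the 4 motifs. These are matches of letters in a short window and say nothing of binding.

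Total Hox RNA differed between cell classes by more than counting error. In control skin it was lowest among keratinocytes in the suprabasal-like cells of the interfollicular epidermis (IFE), at 194 CPM (interval 183 to 207), and highest in the class of early hair lineage and hair shaft-like cells, at 648 CPM (615 to 682). Between them lay companion layer-like cells at 267 CPM, IFE basal-like cells at 364, sebaceous gland (SG)-like cells at 366, upper follicle-like cells at 491, outer root sheath (ORS)-like cells at 504, inner root sheath (IRS)-like cells at 524 and matrix-like cells at 604. Dermal papilla-like cells, the mesenchymal cells beneath the follicle, held the highest total of any class, 1022 CPM (973 to 1073), against 389.6 CPM (376 to 403) in other fibroblast-like cells. The intervals of IFE basal-like and SG-like cells overlapped, as did those of upper follicle-like, ORS-like and IRS-like cells. Those of matrix-like (586 to 622) and hair lineage and shaft-like cells also overlapped. The order within each of these sets therefore rests on overlapping intervals. In the Gli2EKO library, the same ends of the scale were seen, from 204 CPM (194 to 216) in IFE suprabasal-like cells to 856 CPM (787 to 930) in hair lineage and shaft-like cells and 1145 CPM (1079 to 1213) in dermal papilla-like cells.

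**Figure D1:**
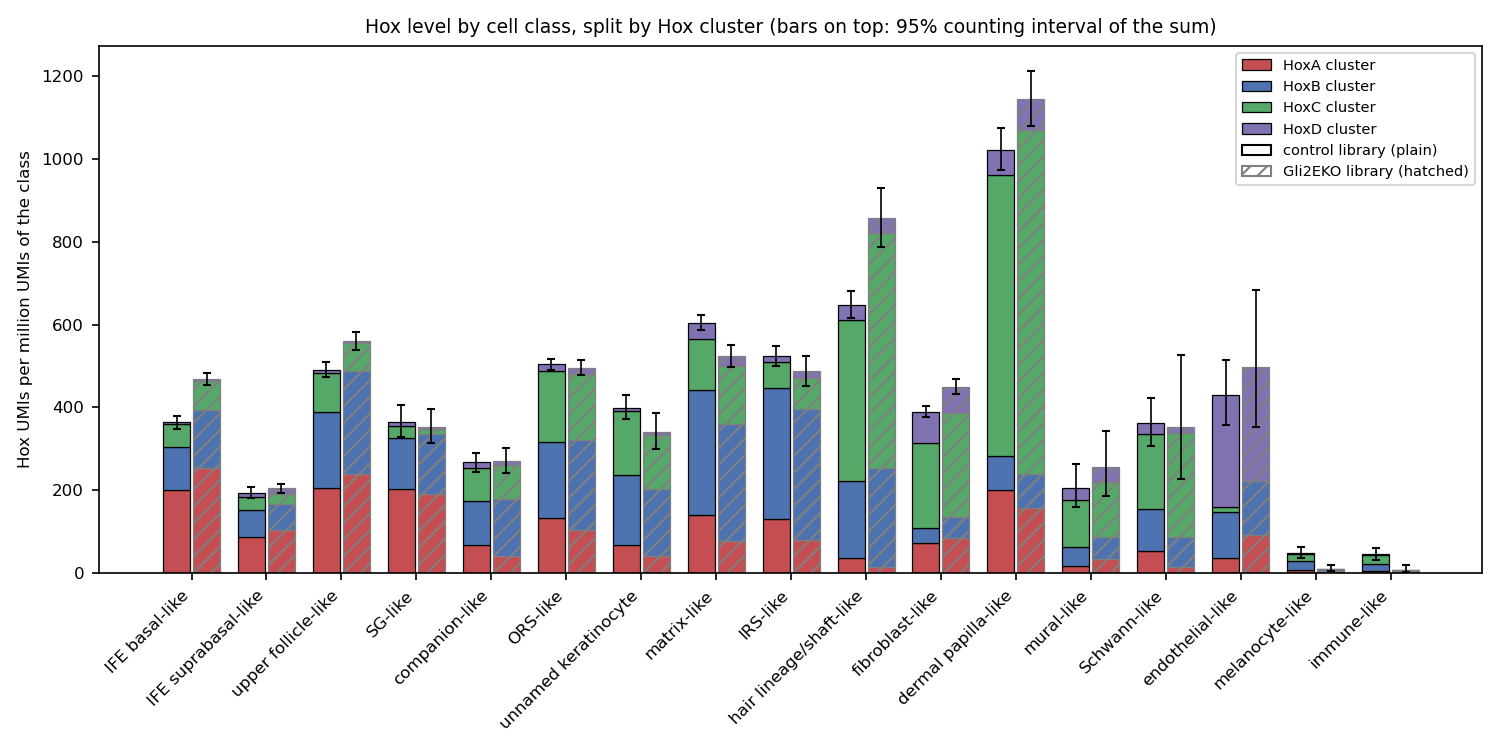
Total Hox RNA per cell class in each library, in CPM, divided by cluster letter. IFE suprabasal-like cells had the lowest total among keratinocytes (194 CPM in control and 204 in Gli2EKO), dermal papilla-like cells the highest of all classes (1022 and 1145), and melanocyte-like and immune-like cells were near the bottom of the scale.

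Melanocyte-like and immune-like cells were taken as the background and had the lowest Hox totals of all classes. They share the droplets' free RNA but may also make Hox RNA of their own, which cannot be told from it here. Together they held 47.2 CPM (38.5 to 57.4) in control and 10.0 CPM (5.49 to 16.9) in Gli2EKO, which was 101 and 14 UMIs in 200 and 113 cells. In control this was 6.08 CPM of HoxA, 19.6 of HoxB, 20.1 of HoxC and 1.40 of HoxD, and in Gli2EKO 5.02, 4.30, 0.718 and 0 CPM. The background was therefore higher in the control library for HoxB and HoxC and close for HoxA. Cluster sums of a few CPM are at the level of this background and cannot be told from it. For single genes the control background differed, each on few UMIs: 3.27 CPM for Hoxc8, 1.87 for Hoxc10, 0.935 for Hoxc9, 0.468 for Hoxa9 and 0 for Hoxd9. For Hoxc10 it was above the 0.108 CPM of control keratinocytes, so it is not a floor that holds for every class. Melanocyte-like cells, which had Pmel, Dct and Tyrp1 among their leading genes, held 58 and 9 Hox UMIs in all. In control, 15 of their 26 HoxB UMIs were of Hoxb4, at 12.6 CPM.

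IFE basal-like cells, the proliferating layer that renews the epidermis, were led by Hoxa7. Hoxa7 stood at 133 CPM (829 UMIs) in the control library and 180 CPM (1562 UMIs) in Gli2EKO, followed in control by Hoxa5 at 27.6 and Hoxb2 at 26.8 CPM. HoxA held 55.4% of Hox UMIs in these cells in control (53.4 to 57.5) and 54.1% in Gli2EKO (52.6 to 55.7). Genes of number 7 made up 41.2% and 43.8%. Upper follicle-like cells, the region above the bulge that gives rise to the infundibulum and the gland, held Hoxa7 at a level that did not differ from IFE basal-like cells beyond counting error. It was at 130 CPM in control, where the fold of IFE basal-like over upper follicle-like cells was 1.02 (0.924 to 1.12), and at 165 CPM in Gli2EKO, where it was 1.09 (0.994 to 1.19). Suprabasal-like cells held 55.2 and 69.6 CPM of Hoxa7, so basal-like cells were higher by 2.40-fold (2.10 to 2.76) in control and 2.58-fold (2.33 to 2.87) in Gli2EKO. Along the follicle Hoxa7 was at 62.8 and 60.6 CPM in ORS-like, 85.3 and 54.3 in matrix-like and 77.4 and 46.0 in IRS-like cells, and it was lowest in hair lineage and shaft-like cells, at 13.8 and 4.52 CPM.

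Over all keratinocytes the other low-numbered HoxA genes were at lower levels than Hoxa7. Hoxa5 ranged among keratinocyte classes of the control library from 7.10 CPM in hair lineage and shaft-like to 30.0 CPM in ORS-like cells. Hoxa2, Hoxa3, Hoxa4 and Hoxa6 lay between 3.53 and 8.34 CPM in control IFE basal-like cells and were at or below 0.729 CPM in control fibroblast-like cells.

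SG-like cells, named from lipid enzymes such as Scd1, Cidea and Fa2h, differed from other keratinocytes in Hoxa9. Hoxa9 was the highest Hox gene there, at 107 CPM (106 UMIs from 44 cells) in control and 91.2 CPM (74 UMIs from 26 cells) in Gli2EKO. All other keratinocytes together held 15.9 and 10.2 CPM, so SG-like cells were higher by 6.70-fold (5.41 to 8.23) in control and 8.96-fold (6.87 to 11.6) in Gli2EKO. The SG-like level was within counting error of that in dermal papilla-like cells (105 and 92.5 CPM; fold 1.01, 0.787 to 1.30, and 0.985, 0.715 to 1.352). Collagen RNA (Col1a1, Col1a2 and Col3a1 together) was 374 CPM in control SG-like cells and 87.5 CPM in Gli2EKO SG-like cells, against 28655 and 24689 CPM in fibroblast-like cells.

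HoxB genes had their largest share in IRS-like and matrix-like cells. They held 60.4% of Hox UMIs in IRS-like cells of the control library (58.2 to 62.6) and 65.1% (61.5 to 68.6) in Gli2EKO, and 49.9% and 53.7% in matrix-like cells, the dividing cells of the hair bulb, against 28.0% and 29.8% in IFE basal-like cells. HoxB was also the largest of the clusters in ORS-like (36.3% and 43.6%) and companion layer-like cells (39.7% and 50.8%). In Gli2EKO the same held for upper follicle-like cells (44.6%). Hair lineage and shaft-like cells held only 28.8% and 28.0%. In IRS-like cells the share was spread over many genes. In control IRS-like cells Hoxb6 stood at 76.9 CPM, Hoxb3 at 51.3, Hoxb2 at 48.3, Hoxb7 at 47.7, Hoxb4 at 38.3 and Hoxb8 at 38.0, while Hoxb5 was at 11.9 and Hoxb9 at 2.77. The Gli2EKO IRS-like cells held 67.7 CPM of Hoxb6, 54.1 of Hoxb7, 51.4 of Hoxb4, 44.7 of both Hoxb2 and Hoxb8, and 35.9 of Hoxb3. Hoxb6 was 4.57-fold (3.64 to 5.77) and 3.10-fold (2.41 to 3.96) higher in IRS-like than in IFE basal-like cells. Against matrix-like cells the fold was only 1.22 (1.05 to 1.42) and 1.25 (0.966 to 1.62), and the second of these intervals included 1.

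**Figure D2:**
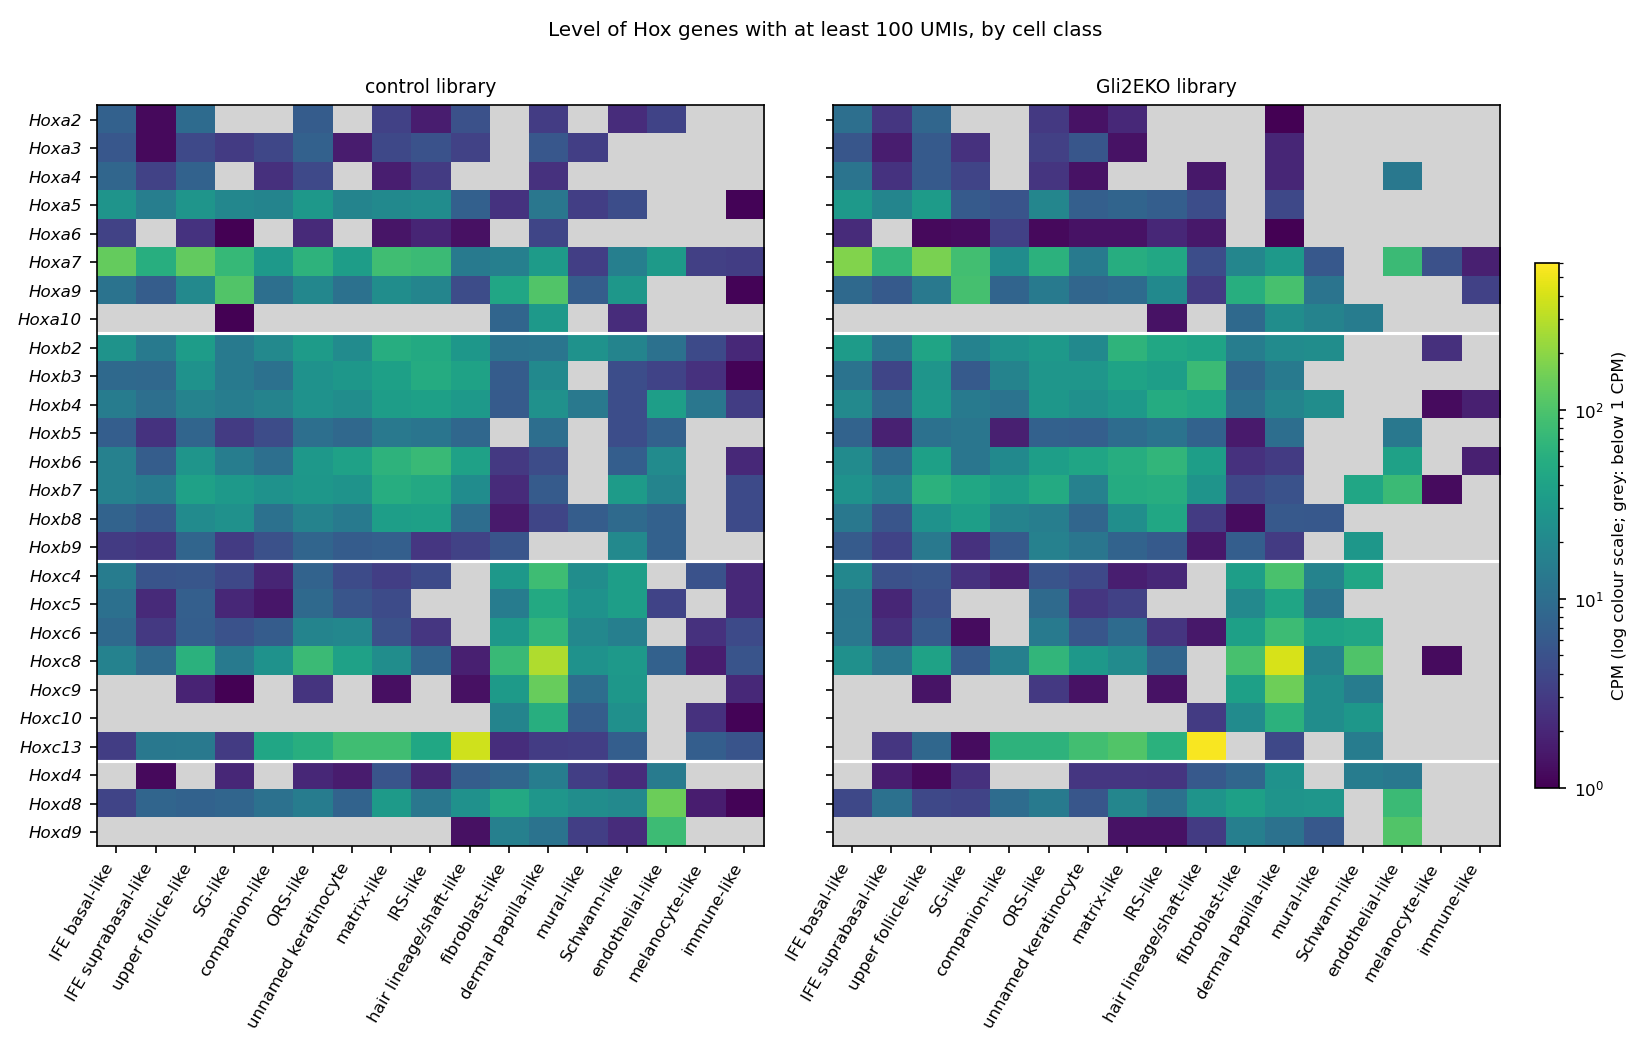
Levels of Hox genes with at least 100 UMIs in each cell class and library, in CPM on a logarithmic colour scale, with values below 1 CPM in grey. Hoxa7 is strongest in IFE basal-like and upper follicle-like columns (133 and 130 CPM in control), Hoxc13 in hair lineage and shaft-like cells (382 CPM), Hoxc8 in dermal papilla-like cells (282 CPM) and the HoxB genes in matrix-like and IRS-like cells.

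Hoxc13 was highest in the hair lineage. In hair lineage and shaft-like cells it stood at 382 CPM (862 UMIs) in control and 561 CPM (372 UMIs) in Gli2EKO. Divided further, early hair lineage cells (Foxq1, Krt75) held 288 and 404 CPM and hair shaft cells (Krt35, Krt85) 497 and 672 CPM. Matrix-like cells held 84.3 and 104 CPM, a level 4.53-fold (4.08 to 5.04 in control) and 5.37-fold (4.603 to 6.27 in Gli2EKO) below. A cluster of keratinocytes that no marker list named, led by Flrt2, Tagln, Slit3 and Acta2, was within counting error of matrix-like cells at 84.0 and 85.6 CPM. ORS-like cells held 55.7 and 62.0 CPM, IRS-like cells 44.95 and 59.5, and companion layer-like cells 44.1 and 62.6. In IFE basal-like cells Hoxc13 was at 3.21 CPM in control (20 UMIs), below the control Hoxc13 background of 6.08 CPM. In Gli2EKO it was at 0.9199 CPM (8 UMIs) there, beside a background of 0 CPM. Genes of number 13, of which Hoxc13 alone was counted beyond a single UMI, made up 59.0% of Hox UMIs in hair lineage and shaft-like cells in control and 65.5% in Gli2EKO. Because of it, the mean Hox number, weighted by UMIs, was 9.81 and 10.1 in these cells against 5.85 and 5.88 in IFE basal-like cells.

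Hoxc8, a gene of thoracic level, had its highest value in the dermal papilla-like cells and a further domain in the outer follicle. Dermal papilla-like cells held 282 CPM (450 UMIs) in control and 403 CPM (401 UMIs) in Gli2EKO, 3.72-fold (3.28 to 4.20) and 4.29-fold (3.75 to 4.89) above other fibroblast-like cells, which held 76.0 and 94.1 CPM. Among keratinocytes it was highest in ORS-like cells, at 77.4 and 66.9 CPM, followed by upper follicle-like cells at 59.5 and 40.3. ORS-like cells were 9.97-fold (6.84 to 15.1) and 8.24-fold (4.66 to 16.1) above IRS-like cells, which held 7.77 and 8.12 CPM. In hair lineage and shaft-like cells it was at 1.77 and 0 CPM, where Hoxc13 was highest. In control, ORS-like and fibroblast-like cells did not differ in Hoxc8 beyond counting error (fold of fibroblast-like over ORS-like 0.981, 0.883 to 1.09), and in Gli2EKO fibroblast-like cells were 1.41-fold (1.23 to 1.61) higher.

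**Figure D3:**
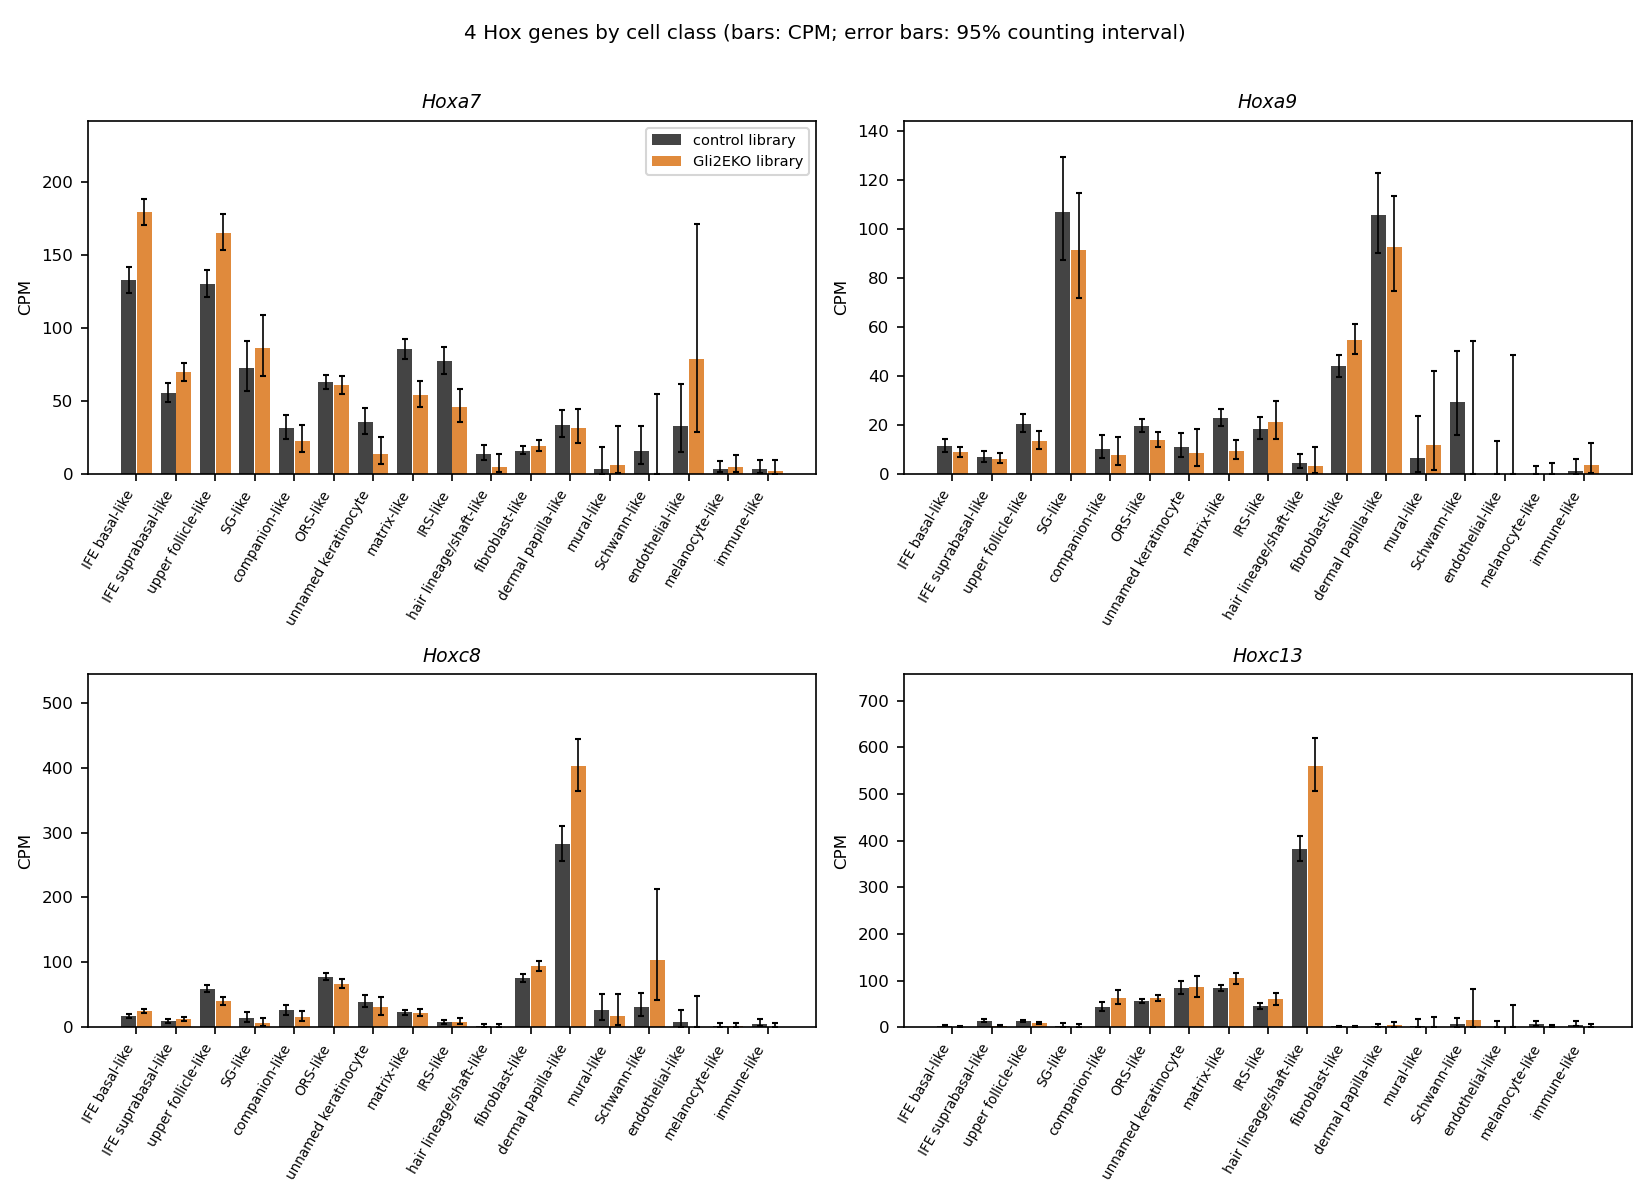
Levels of Hoxa7, Hoxa9, Hoxc8 and Hoxc13 by cell class in both libraries, in CPM with 95% counting intervals. Hoxa7 is highest in IFE basal-like cells (133 and 180 CPM), Hoxa9 in SG-like (107 and 91.2) and dermal papilla-like cells (105 and 92.5), Hoxc8 in dermal papilla-like cells (282 and 403) and Hoxc13 in hair lineage and shaft-like cells (382 and 561).

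Fibroblast-like cells and keratinocytes of the same library used different Hox genes. In control, 29 of the 39 genes held 20 UMIs or more over both kinds of cell. Of these, 12 were more than 2-fold higher in fibroblast-like cells, namely Hoxa9, Hoxa10, Hoxc4, Hoxc5, Hoxc6, Hoxc8, Hoxc9, Hoxc10, Hoxd3, Hoxd4, Hoxd8 and Hoxd9. In the same cells 16 were more than 2-fold lower, among them Hoxa2 to Hoxa7, Hoxb1 to Hoxb8 and Hoxc13. Among all 17904 genes counted to the same depth, 17.8% were higher and 23.1% lower in control. In Gli2EKO 11 of 28 genes were higher and 16 lower, against 19.8% and 20% of 16735 genes. The 11 genes are those of control without Hoxd3, and the 16 are the same genes. Hoxb1 was lower on few UMIs, with intervals that included 0 (2 against 29 UMIs in control and 0 against 21 in Gli2EKO), and Hoxa6 also had 0 UMIs in Gli2EKO fibroblast-like cells. Hoxb9 alone was on neither side, with a log2 ratio of -0.08 (-0.57 to 0.39) in control and -0.33 (-0.86 to 0.16) in Gli2EKO. Hoxc8 was only just past 2-fold in control, at a log2 ratio of 1.05 (0.92 to 1.18).

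Among the genes higher in fibroblast-like cells, Hoxc10 was at 17.9 and 22.1 CPM in fibroblast-like cells and at 0.108 and 0.0905 CPM in keratinocytes, a log2 ratio of 7.36 (6.11 to 9.01) in control and 7.93 (6.35 to 10.2) in Gli2EKO. Hoxa10 was at 8.14 and 8.90 CPM against 0.0434 and 0.121 CPM (log2 ratio 7.55 and 6.20). Hoxd9 was at 16.0 and 15.7 CPM against 0.325 and 0.422 CPM (5.62 and 5.21), and Hoxc9 at 32.7 and 37.9 CPM against 1.37 and 0.935 CPM (4.58 and 5.34). In the other direction, Hoxa7 was lower in fibroblast-like cells by a log2 ratio of -2.35 and -2.44, Hoxb7 by -3.86 and -3.24, and Hoxc13 by -4.63 and -5.81. Against all keratinocytes together, the boundary within HoxA fell between Hoxa7 and Hoxa9. The UMI-weighted mean number within HoxA was accordingly 8.37 and 8.59 in fibroblast-like cells and 6.42 and 6.43 in keratinocytes. HoxC showed the opposite order, 7.29 and 7.24 in fibroblast-like cells against 9.95 and 9.44 in keratinocytes, because of Hoxc13.

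**Figure D4:**
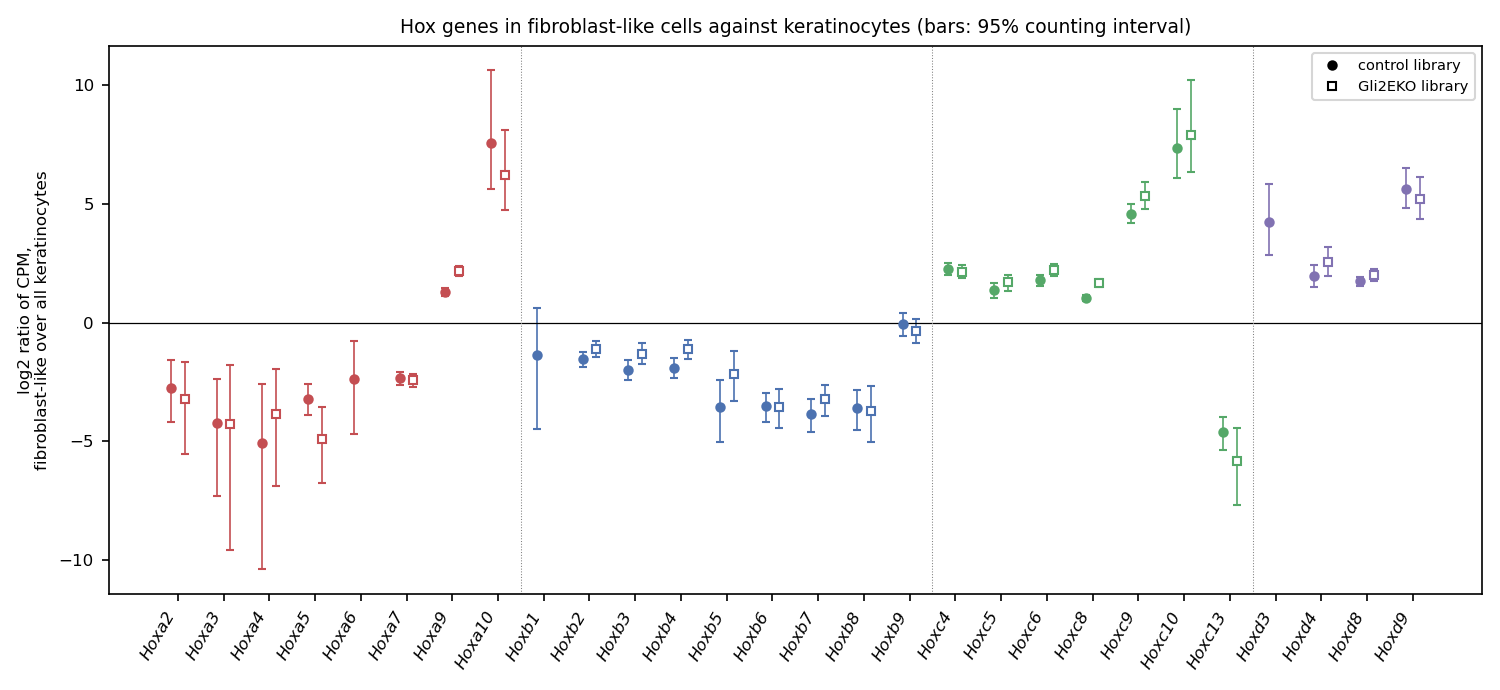
Log2 ratio of fibroblast-like cells over all keratinocytes in each library for Hox genes with at least 20 UMIs, in the order of the clusters, with 95% counting intervals. Genes with 0 UMIs in one kind of cell are not drawn. HoxA genes up to Hoxa7 and HoxB genes up to Hoxb8 lie below 0, Hoxa9, Hoxa10 and the HoxC and HoxD genes lie above 0, and Hoxc13 is the exception within HoxC (-4.63 and -5.81).

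Collagen, made by fibroblasts, was counted beside the Hox genes as a measure of fibroblast RNA in keratinocytes. Collagen in keratinocytes was 130 CPM in control and 93.0 CPM in Gli2EKO, which is 0.454% and 0.377% of the level in fibroblast-like cells. Hoxc10 in keratinocytes, at 0.607% and 0.410% of its fibroblast-like level, was close to this share, as was Hoxa10 in control at 0.532% (1.36% in Gli2EKO). Hoxc9 was above it at 4.18% and 2.47%. For Hoxa9 the share was 40.9% and 22.3% and for Hoxc8 48.3% and 31.5%, far above the collagen share.

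Dermal papilla-like cells shared the HoxC-led profile of other fibroblast-like cells at a higher level. HoxC held 66.2% of their Hox UMIs in control and 72.5% in Gli2EKO, and 52.5% and 55.5% in other fibroblast-like cells. Hoxc9 was at 135 and 145 CPM, 4.14-fold (3.45 to 4.98) and 3.82-fold (3.07 to 4.74) above other fibroblast-like cells, and Hoxc10 at 55.2 and 60.4 CPM was 3.09-fold and 2.74-fold above. Hoxa10 was 3.77-fold and 2.60-fold above. HoxD genes differed among themselves. Hoxd4 was at 15.1 against 8.27 CPM in control and 26.2 against 8.36 CPM in Gli2EKO. Hoxd8 was lower in dermal papilla-like cells in control, at 28.9 against 47.0 CPM (fold 0.614, 0.442 to 0.834), while in Gli2EKO the fold of 0.710 had an interval that included 1 (0.457 to 1.06). For Hoxd9 the intervals included 1 in both libraries (0.405 to 1.16 and 0.340 to 1.33).

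HoxD held 63.0% (53.7 to 71.7) and 55.3% (38.3 to 71.4) of the Hox UMIs of endothelial-like cells, of which there were 24 in control and 7 in Gli2EKO. Its share was 19.2% and 14.3% in fibroblast-like cells and 1.32% and 1.10% in IFE basal-like cells. Hoxd8 was at 141 CPM (39 UMIs) in control and 78.6 CPM (6 UMIs) in Gli2EKO, and Hoxd9 at 79.6 and 105 CPM. Of the 17 UMIs of Hoxd10 in all kept cells, the control endothelial-like cells held Hoxd10 at 36.2 CPM and the Gli2EKO endothelial-like cells at 78.6 CPM, and it was at 0 CPM in fibroblast-like cells. Mural-like cells (26 and 20) held 207 and 256 CPM of Hox RNA in all, and Schwann-like cells (39 and 8) 361 and 354 CPM. HoxC held 55.6% and 52.3% of Hox UMIs in mural-like and 50% and 70.8% in Schwann-like cells. Collagen stood at 1942 and 2467 CPM in mural-like and at 4698 and 4054 CPM in Schwann-like cells, and its part in their HoxC values was not tested.

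Counted cell by cell, the same classes stood out. Each cell was thinned to 5000 UMIs and shallower cells were left out. At least 1 Hox UMI was then found in 82.0% of control and 82.6% of Gli2EKO keratinocytes (92.9% and 93.8% without thinning), and in 18.4% and 4.95% of immune-like and melanocyte-like cells, whose median depths before thinning were 8737 and 11425 UMIs against 12427 and 12887.5 in keratinocytes. Hoxc13 was found in 79.9% (73.3 to 85.5) of 179 control and 84.2% (72.1 to 92.5) of 57 Gli2EKO hair lineage and shaft-like cells, and in 3.29% and 0% of the background cells (0 of 101 cells in Gli2EKO, with an upper interval limit of 3.59%). Hoxa7 was found in 40.4% (35.4 to 45.7) of control and 51.3% (47.1 to 55.6) of Gli2EKO IFE basal-like cells, against 1.32% and 1.98% of background cells. Hoxc8 was found in 30.0% and 28.5% of ORS-like, 61.5% and 72.2% of dermal papilla-like and 1.97% and 0% of background cells. The mean number of different Hox genes per thinned cell was 3.50 and 3.51 in dermal papilla-like cells, 2.48 and 2.16 in matrix-like cells, 0.893 and 0.960 in IFE suprabasal-like cells and 0.230 and 0.0495 in background cells. Without thinning, these shares were 89.7% and 82.1% for Hoxc13, 59.7% and 69.5% for Hoxa7 and 50.1% and 40.7% for Hoxc8 in ORS-like cells.

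The 2 genotypes differed little in the sum of all Hox RNA and more in its parts. Ratios of Gli2EKO over control describe 2 libraries, and differences between mice, between libraries and between genotypes cannot be told apart. Over all keratinocytes the log2 ratio of total Hox RNA was -0.07 (-0.10 to -0.04), a value that also carries the different make-up of the libraries: 594 of 2302 Gli2EKO keratinocytes were IFE basal-like against 390 of 3324 in control. Of 26 Hox genes with at least 20 UMIs in keratinocytes, 4 had an interval above 0 and 11 an interval below 0, where all 18494 such genes gave 14.9% and 36.1%. The ratios of Hox genes that follow are therefore given within a class. Total Hox RNA was higher in Gli2EKO in IFE basal-like (0.37, 0.29 to 0.44), upper follicle-like (0.19, 0.11 to 0.27) and hair lineage and shaft-like cells (0.40, 0.26 to 0.54), lower in matrix-like cells (-0.20, -0.29 to -0.12), and its interval included 0 in ORS-like (-0.02) and IRS-like cells (-0.10). With 15% of cells removed by doublet score the upper follicle-like ratio was 0.098 (-0.03 to 0.22), an interval that included 0, and without doublet removal the IRS-like ratio was -0.24 (-0.36 to -0.12).

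The clearest difference was in HoxA, and its direction depended on the class. HoxA was higher in Gli2EKO in the epidermis and upper follicle, with a log2 ratio of 0.33 (0.23 to 0.43) in IFE basal-like, 0.26 (0.09 to 0.44) in IFE suprabasal-like and 0.21 (0.09 to 0.33) in upper follicle-like cells. The upper follicle-like interval included 0 without doublet removal (0.16, -0.01 to 0.32), with 15% removed (0.12, -0.07 to 0.30) and without integration (0.10, -0.02 to 0.21). HoxA was lower in Gli2EKO in ORS-like (-0.36, -0.50 to -0.22), IRS-like (-0.71, -1.02 to -0.42) and matrix-like cells (-0.86, -1.08 to -0.65). It was also lower in hair lineage and shaft-like cells (-1.24, -2.35 to -0.28), on 80 and 10 UMIs. Companion layer-like cells were lower as well (-0.71, -1.22 to -0.23). That class was named from Krt79, Cst6, Krt6a, Krt16 and Defb6, and the study counts Krt79 among SG lineage markers, so its place along the follicle is open. In companion layer-like cells collagen also differed, at 428 CPM in control and 83.5 CPM in Gli2EKO, and its part in their HoxA, HoxB and Hoxc13 values was not tested. In matrix-like cells HoxA stood at 141 CPM in control and 77.8 CPM in Gli2EKO, and its share of Hox UMIs was 23.4% (22.1 to 24.7) against 14.8% (13.1 to 16.7). The HoxA background was 6.08 and 5.02 CPM. The difference between classes has no test with 1 library per genotype.

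Among single HoxA genes, Hoxa5 was lower in Gli2EKO in most classes outside the epidermis and upper follicle. Hoxa5, a gene of the neck and upper trunk level, was at 20.9 and 7.95 CPM in matrix-like cells (log2 ratio -1.40, -2.10 to -0.75), at 22.5 and 6.76 in IRS-like cells (-1.73, -2.85 to -0.78) and at 30.0 and 18.8 in ORS-like cells (-0.67, -0.99 to -0.35). Over the 14 keratinocyte clusters with enough UMIs, it was lower in 8 and higher in 6, and its interval lay below 0 in 6 and above 0 in 0. Hoxa5 was also lower in fibroblast-like (21 and 4 UMIs, -1.84, -3.85 to -0.28) and dermal papilla-like cells (20 and 4 UMIs, -1.64, -3.65 to -0.06). In IFE basal-like cells it stood at 27.6 and 31.7 CPM (0.20, -0.08 to 0.49). The IFE suprabasal-like cluster (0.23, -0.19 to 0.66) and the upper follicle-like clusters (0.30, -0.15 to 0.75, and 0.19, -0.29 to 0.68) were also on the higher side, with intervals that included 0. Hoxa9 was at 22.8 and 9.33 CPM in matrix-like cells (-1.29, -1.93 to -0.69), at 19.5 and 13.6 in ORS-like cells (-0.52, -0.91 to -0.14) and at 20.4 and 13.4 in upper follicle-like cells (-0.60, -1.08 to -0.14), while in IRS-like cells its interval included 0 (0.20, -0.47 to 0.83). Hoxa7 differed in both directions: it was higher in Gli2EKO in IFE basal-like (0.43, 0.31 to 0.56), IFE suprabasal-like (0.33, 0.12 to 0.55) and upper follicle-like cells (0.34, 0.19 to 0.49), lower in matrix-like (-0.65, -0.92 to -0.40) and IRS-like cells (-0.75, -1.16 to -0.36), and its interval included 0 in ORS-like cells (-0.05).

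**Figure D5:**
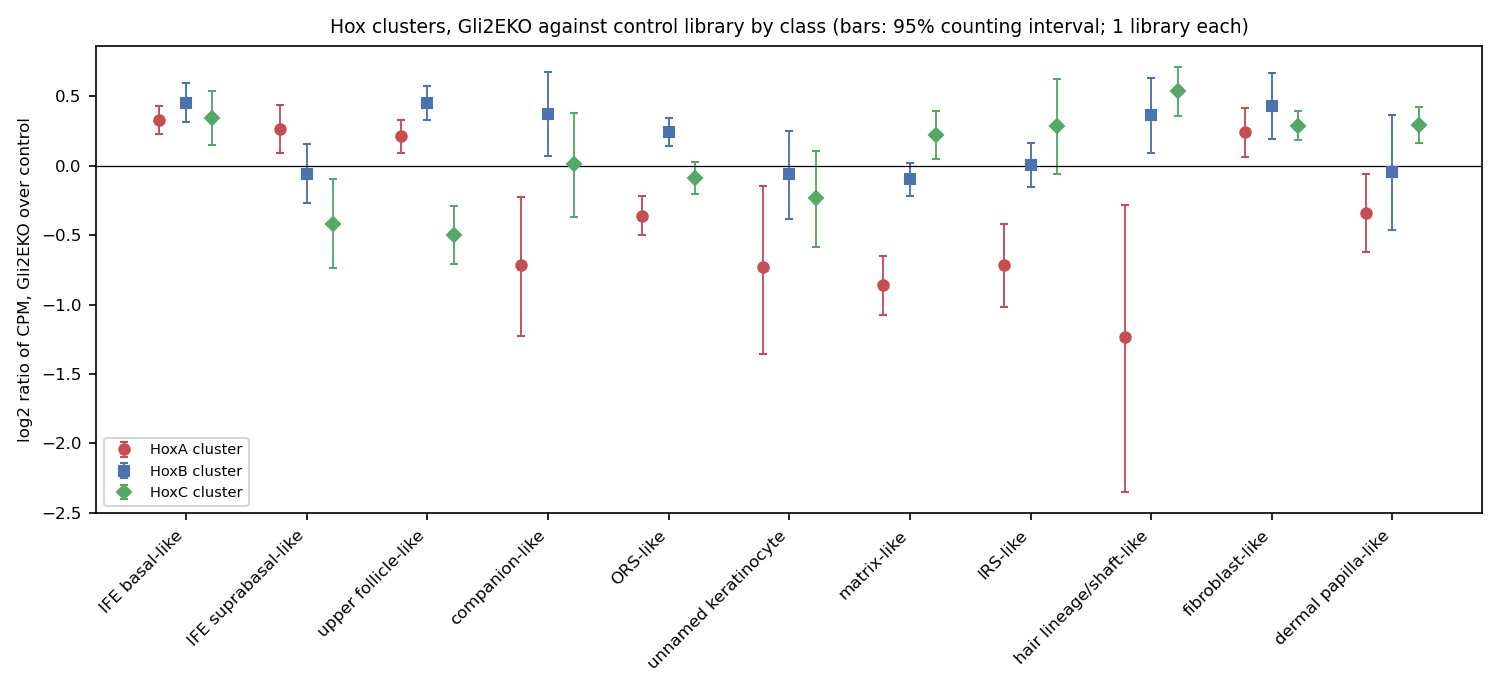
Log2 ratio of Gli2EKO over control of the HoxA, HoxB and HoxC clusters in 11 cell classes, with 95% counting intervals. HoxA lies above 0 in IFE basal-like (0.33), IFE suprabasal-like (0.26) and upper follicle-like cells (0.21) and below 0 in ORS-like (-0.36), IRS-like (-0.71), matrix-like (-0.86) and hair lineage and shaft-like cells (-1.24).

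HoxB was higher in Gli2EKO in IFE basal-like (0.45, 0.31 to 0.59), upper follicle-like (0.45, 0.33 to 0.57), ORS-like (0.24, 0.14 to 0.34), companion layer-like (0.37, 0.07 to 0.67) and hair lineage and shaft-like cells (0.36, 0.09 to 0.63). In matrix-like (-0.10, -0.22 to 0.02) and IRS-like cells (0.00, -0.15 to 0.16), where the HoxB share was largest, the intervals included 0. Hoxb7 stood at 29.8 and 49.9 CPM in ORS-like cells (0.74, 0.51 to 0.98), and Hoxb9 at 7.98 and 16.5 (1.04, 0.61 to 1.48). The same 2 genes were higher in upper follicle-like cells, Hoxb7 by 0.67 (0.41 to 0.93) and Hoxb9 by 0.75 (0.18 to 1.33), and in IFE basal-like cells by 0.61 (0.27 to 0.96) and 1.03 (0.25 to 1.86). The HoxB background, 19.6 CPM in control and 4.30 in Gli2EKO, differed the other way. Hoxb3, on the other hand, differed between layers, from 39.5 in control to 78.4 CPM in Gli2EKO in hair lineage and shaft-like cells (0.99, 0.47 to 1.499) and from 51.3 to 35.9 CPM in IRS-like cells (-0.52, -0.99 to -0.07). Within the hair class, early lineage cells held 20.2 and 90.9 CPM of Hoxb3 (25 UMIs each; 2.17, 1.31 to 3.03) and shaft cells 63.0 and 69.5 CPM (0.14, -0.57 to 0.81).

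HoxC differed by gene. Hoxc13 was higher in Gli2EKO in hair lineage and shaft-like (0.55, 0.37 to 0.73), matrix-like (0.31, 0.10 to 0.51), IRS-like (0.41, 0.01 to 0.79) and companion layer-like cells (0.51, 0.04 to 0.97), although over all keratinocytes, which held 213 hair lineage and shaft-like cells in control and 84 in Gli2EKO, it was at 57.0 CPM in control and 39.9 CPM in Gli2EKO. In IFE suprabasal-like cells it was lower, at 13.1 and 2.73 CPM (-2.26, -3.10 to -1.49), beside a Hoxc13 background of 6.08 and 0 CPM whose part in this difference was not tested. It was lower in upper follicle-like cells as well, at 13.2 and 8.48 CPM (-0.64, -1.25 to -0.06). Within the hair class, the ratio of Hoxc13 was 0.49 (0.17 to 0.80) in the early lineage and 0.43 (0.21 to 0.65) in shaft cells. Hoxc8 was higher in IFE basal-like (0.54, 0.20 to 0.89) and dermal papilla-like cells (0.51, 0.32 to 0.71) and lower in upper follicle-like (-0.56, -0.83 to -0.30) and ORS-like cells (-0.21, -0.39 to -0.04). HoxC as a whole was lower in upper follicle-like cells, at 93.9 and 66.4 CPM (-0.50, -0.71 to -0.29), beside a HoxC background of 20.1 and 0.718 CPM. HoxD was lower in matrix-like cells (-0.76, -1.17 to -0.37), where Hoxd8 stood at 32.7 and 19.0 CPM (-0.78, -1.23 to -0.35).

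The K14 promoter is a keratinocyte promoter, so fibroblast-like and dermal papilla-like cells give the size of difference between the libraries in cells that Cre does not target. In fibroblast-like cells total Hox RNA was higher in Gli2EKO by 0.21 (0.13 to 0.28), HoxA by 0.24 (0.06 to 0.41), HoxB by 0.43 (0.19 to 0.67) and HoxC by 0.29 (0.18 to 0.39), while HoxD was lower (-0.22, -0.42 to -0.03). Without doublet removal the HoxA interval included 0 (0.12, -0.03 to 0.27). The intervals of HoxA and HoxB overlapped those in IFE basal-like and upper follicle-like cells. In dermal papilla-like cells HoxA was lower (-0.34, -0.62 to -0.06) and HoxC was higher (0.29, 0.16 to 0.43). The HoxA value was close to that of ORS-like cells (-0.36). Its interval overlapped those of ORS-like, IRS-like, companion layer-like and hair lineage and shaft-like cells, but not that of matrix-like cells. Of the 22 Hox genes counted in fibroblast-like cells, 5 had an interval above 0 and 3 below, where all genes gave 14.0% and 14.1%. The 3 fibroblast-like clusters held different shares of the class in the 2 libraries (48.4%, 29.0% and 22.6% in control; 59.2%, 19.8% and 21.0% in Gli2EKO). Within them the log2 ratio of all Hox RNA was 0.08 (-0.02 to 0.18), 0.08 (-0.08 to 0.24) and 0.34 (0.16 to 0.51). That of HoxA was 0.18 (-0.04 to 0.39), -0.55 (-1.04 to -0.08) and 0.25 (-0.23 to 0.72). HoxA was thus lower in the second of these clusters, on 163 and 49 UMIs. Its interval there overlapped those of ORS-like, matrix-like, IRS-like, companion layer-like and hair lineage and shaft-like cells.

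The single Hox genes past a log2 ratio of 0.5 were set beside all genes with at least 20 UMIs in the class. In ORS-like cells 2 of 24 Hox genes were higher and 10 lower, among all genes 5.98% and 9.51%, and 7 of the 8 HoxA genes were among the lower. In matrix-like cells 1 of 20 was higher and 9 lower (all genes 8.91% and 13.4%), including 5 of 5 HoxA genes. In IFE basal-like cells 5 of 22 were higher and 2 lower (all genes 7.55% and 9.49%), and in upper follicle-like cells 4 of 22 were higher and 6 lower (all genes 5.55% and 17.1%). In IRS-like cells 0 of 13 were higher and 3 lower (all genes 9.53% and 17.7%), and in fibroblast-like cells 2 of 22 were higher and 3 lower (all genes 8.01% and 9.38%). The median log2 ratio of the Hox genes was 0.36 in IFE basal-like cells (all genes -0.03), 0.26 in fibroblast-like cells (all genes -0.003), 0.18 in upper follicle-like cells (all genes -0.10), -0.05 in IRS-like cells (all genes -0.11), -0.19 in ORS-like cells (all genes -0.04) and -0.39 in matrix-like cells (all genes -0.07). Low counts widen this spread: several of the ORS-like HoxA genes, such as Hoxa4 and Hoxa6, had intervals that included 0.

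The HoxA difference was also looked at in the single clusters that make up the classes. Among 15 keratinocyte clusters the HoxA interval lay below 0 in 8 and above 0 in 3. The 3 ORS-like clusters gave -0.25 (-0.49 to -0.02), -0.47 (-0.70 to -0.25) and -0.40 (-0.67 to -0.13). Of the 3 IFE basal-like clusters only the cycling one, with histone genes among its leading genes, had an interval above 0 (0.58, 0.41 to 0.74), and the others gave 0.11 (-0.03 to 0.26) and 0.03 (-0.29 to 0.34). The 2 upper follicle-like clusters gave 0.15 (-0.02 to 0.32) and 0.27 (0.10 to 0.45). HoxB had an interval above 0 in 8 of 15 clusters and below 0 in 0.

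Hox proteins bind DNA with partners of the TALE homeodomain family, and these were read from a list of 9 genes. Meis1 was at 432 and 394 CPM in dermal papilla-like cells, 117 and 125 in fibroblast-like cells, 89.4 and 93.9 in the unnamed keratinocyte cluster and 46.4 and 43.8 in ORS-like cells, and Meis2 was at 139 and 157 CPM in fibroblast-like cells and 37.2 and 53.4 CPM in IFE basal-like cells. Of the 9 genes, 1 had an interval above 0 (Meis2) and 5 below 0 over all keratinocytes (all genes 14.9% and 36.1%), with a median of -0.26 beside -0.14 for all genes. Within classes, their median log2 ratio was -0.10 in IFE basal-like (all genes -0.03) and -0.27 in upper follicle-like cells (all genes -0.10). It was -0.10 in ORS-like (all genes -0.04) and -0.07 in matrix-like cells (all genes -0.07). Meis2 was higher in IFE basal-like (0.52, 0.29 to 0.75) and upper follicle-like cells (4.14 and 12.7 CPM; 1.62, 0.92 to 2.35).

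Non-coding RNAs inside the clusters were counted from a list of 20 cluster neighbours, of which 19 were in the gene list and 13 reached 20 UMIs in keratinocytes, 2 with an interval above 0 and 1 below (all genes 14.9% and 36.1%). Within classes, their median log2 ratio was 0.24 in IFE basal-like (all genes -0.03), 0.19 in ORS-like (all genes -0.04) and -0.19 in matrix-like cells (all genes -0.07). Hotairm1, a non-coding RNA of HoxA, was at 85.1 and 98.9 CPM in IFE basal-like cells, where Hoxa7 was highest, against 5.83 and 5.51 in fibroblast-like cells. Hoxaas3, an antisense RNA of HoxA, was lower in Gli2EKO in matrix-like (8.45 and 4.49 CPM; -0.91, -1.90 to -0.03), IRS-like (7.77 and 2.03; -1.94, -4.30 to -0.24) and ORS-like cells (14.1 and 10.0; -0.49, -0.95 to -0.05). Hoxb5os was at 43.5 and 82.9 CPM in hair lineage and shaft-like cells (0.93, 0.43 to 1.42). Hotair gave 1 UMI in keratinocytes and 0 in fibroblast-like cells, and Hottip, Evx1, Evx2 and Mir10b gave 0 in both.

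Polycomb proteins keep Hox genes silent and Trithorax proteins keep them active. Of 16 such regulators, 0 had an interval above 0 and 10 below 0 over all keratinocytes (all genes 14.9% and 36.1%), with a median of -0.22 beside -0.14 for all genes. Within classes, their median log2 ratio was 0.04 in IFE basal-like (all genes -0.03) and -0.16 in ORS-like cells (all genes -0.04). It was -0.18 in matrix-like (all genes -0.07) and -0.32 in IRS-like cells (all genes -0.11). Suz12 stood at 227 and 156 CPM in matrix-like cells (-0.54, -0.69 to -0.39) and Ezh2 at 352 and 276 CPM (-0.35, -0.47 to -0.23), both subunits of the Polycomb complex that methylates histone H3. Of 12 other position factors, the dermal factors Tbx15 (506 and 461 CPM), Twist2 (457 and 644) and En1 (54.6 and 60.9) were counted in fibroblast-like cells, and all 3 were below 3 CPM in keratinocytes. The limb factors Pitx1, Tbx4 and Tbx5 gave at most 2 UMIs in either kind of cell and library, and Cdx2 and Cdx4 gave 0.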

How the data were processed

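UMI counts were deposited by the authors as filtered matrices, 1 per library, whole numbers without normalization. Cell Ranger 9.0.1 and the mouse genome GRCm39 are named in the submitters' processing notes. The other values were computed here from those counts. The study's limits were applied (more than 1000 genes per cell, fewer than 8000, and a mitochondrial share below 15%), leaving 4844 control and 3362 Gli2EKO cells. The 8% of cells with the highest Scrublet score (scanpy 1.11.5, expected rate 0.06) in each library were removed in place of scDblFinder. Clustering in Seurat 5.3.0 under R 4.3.3 used 2000 variable genes without Hox genes, 20 principal components, Harmony written anew, resolution 0.5 and seed 1, over all cells (21 clusters) and then keratinocytes (15 clusters). A cluster took the class of its highest marker score of at least 1. Early hair lineage and hair shaft lists were joined for 1 class after the cluster was seen.

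UMIs were summed per class and library. CPM carry exact Poisson intervals, ratios exact conditional binomial intervals and shares Clopper-Pearson intervals, all at 95%. Ratios need at least 20 UMIs over both libraries. A class fold uses the same interval. The ratio and its interval were tested on simulated data. Genes with at least 100 UMIs are named with values; genes outside the family come from lists of cofactors, neighbours, chromatin regulators, position factors, collagens and markers. The members and lists were chosen with earlier results of these data known. Alternatives were no doublet removal, removal of 15%, resolutions 0.3 and 1.0, no integration, Hox genes allowed among variable genes, and other thinning depths. Some gene values are not reported here.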

Additional observations from a re-analysis of the deposited data

Results flagged for a closer look

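HoxA had Gli2EKO over control ratios of opposite sign in different keratinocyte classes of the same 2 libraries. The log2 ratio was 0.33 in IFE basal-like cells and -0.36 in ORS-like, -0.71 in IRS-like and -0.86 in matrix-like cells, each with a counting interval on 1 side of 0. Among the IFE basal-like clusters only the cycling one had an interval above 0 (0.58, 0.41 to 0.74), and the others gave 0.11 and 0.03. Opposite signs were also seen in cells that Cre does not target. HoxA was at 72.8 CPM in control and 85.9 in Gli2EKO fibroblast-like cells, and at 199.5 and 157.9 CPM in dermal papilla-like cells. The difference between the classes was not tested, since each genotype has 1 library and cells are not replicates. In matrix-like cells the share of thinned cells with a HoxA UMI was 41.9% in control and 26.2% in Gli2EKO, and in IRS-like cells 40.1% and 26.9%. The HoxA level of melanocyte-like and immune-like cells was 6.08 and 5.02 CPM.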

How the results depend on the processing

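No paired analysis was possible because each genotype has 1 library, and for the same reason no replicate could be left out. Of the 50 values followed, 50 stayed within their counting intervals at resolution 0.3, without integration and with Hox genes allowed among the variable genes. At resolution 1.0 only the control ORS-like total moved, to 488.5 CPM. None of the 312 alternative values changed direction. Only the log2 ratios among them have a direction, so for levels and shares this was fixed in advance.

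Without doublet removal 15 of 50 values moved. Total Hox RNA became 420.0 and 484.6 CPM in control and Gli2EKO IFE basal-like cells, 445.8 in Gli2EKO IRS-like, 410.6 in control fibroblast-like, 928.8 and 1004 in dermal papilla-like cells, and 130.0 and 74.4 in immune-like and melanocyte-like cells. The HoxC share became 50.3% and 52.2% in fibroblast-like and 63.0% and 69.7% in dermal papilla-like cells, and the log2 ratio of all Hox RNA 0.21 in IFE basal-like, -0.24 in IRS-like and 0.094 in fibroblast-like cells. With 15% removed, 6 values moved: 488.1 CPM in control ORS-like, 555.4 in Gli2EKO matrix-like and 475.4 in control IRS-like cells, a share of number 13 of 61.9% in control hair lineage and shaft-like cells, an upper follicle-like log2 ratio of 0.098 with an interval that included 0 (-0.03 to 0.22) and Hoxc8 in 24.1% of Gli2EKO ORS-like cells. The cause was not tested. The level in immune-like and melanocyte-like cells was thus higher when likely doublets were kept.

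Thinned to 2000 UMIs, shares were 49.3% and 59.8% for Hoxc13 in hair lineage and shaft-like, 23.9% and 27.8% for Hoxa7 in IFE basal-like and 12.6% and 11.03% for Hoxc8 in ORS-like cells. Unthinned they were 89.7% for Hoxc13 in control, 59.7% and 69.5% for Hoxa7 and 50.1% and 40.7% for Hoxc8. With at least 50 UMIs required, fewer of all genes passed a log2 ratio of 0.5, 3.62% higher and 6.31% lower in ORS-like cells. Depth limits the rare classes: SG-like, endothelial-like, mural-like and Schwann-like cells had at most 44 cells a library.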
